A study of Homo sapiens with 15 samples.

Results

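The late step of MSX1 induction was taken as the change between the 3 arrays of induced cells at t = 48 and the 3 arrays of induced cells at t = 24, so 6 of the 15 arrays of the study were compared, over 12880 genes. The arrays were chosen by their titles alone, without use of a measured value. All 15 arrays, 3 in each of 5 groups, held RNA of IMR32, an established human neuroblastoma line, into which MSX1, the gene of a homeodomain transcription factor, had been introduced under doxycycline control. The groups were the t = 0 cells, the cells induced with doxycycline in the medium, sampled at t = 8, 24 and 48, and control cells grown in the same way without doxycycline to t = 48. The labels give no unit of time and do not say whether the cells were 1 clone or a pool. No doxycycline-treated cells without the construct and no control cells at t = 24 were among the 15 arrays, so longer induction, longer exposure to doxycycline and longer culture cannot be told apart in this step.

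Bone morphogenetic proteins (BMPs) signal through SMAD proteins, which activate the ID genes and also the genes of their own inhibitors, SMAD6, SMAD7 and BAMBI. ID proteins bind basic helix-loop-helix factors, among them those that drive neuronal differentiation, and keep them from DNA. MSX1 and MSX2 are themselves known as BMP-responsive genes of the neural crest, the embryonic tissue from which neuroblastoma arises.

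Values are array signals on a linear scale, each array scaled as a whole to the same trimmed mean. Differences are t = 48 minus t = 24 on the log2(signal + 5.16) scale unless another comparison is named, with a standard error (SE) and a Benjamini-Hochberg adjusted p from limma over all 12880 genes. A gene is said to rise or fall where the adjusted p lay under 0.05. Where another probe set of a gene is given, its adjusted p is over all 41091 probe sets with 1 symbol, without the filter on low signals. Such probe sets are given for some genes only, so further ones that did not pass remain unmentioned. The hybridisation control bioC was weak on 2 of the 6 arrays, at a mean of 94.5 in t = 24 replicate 1 and 110.1 in t = 48 replicate 3, against 326 to 449 on the other arrays. The 18S rRNA control lay at 83.6 to 105 at t = 24 and at 114 to 183 at t = 48, without overlap. The 3' to 5' ratio of ACTB overlapped between the groups, at 1.28 to 1.35 and 1.27 to 1.52. Neuroblastoma markers summed to 12870 to 13500 at t = 24 and 12930 to 14410 at t = 48, with TH, the gene of tyrosine hydroxylase, near 0 (mean signals 2.33 and 3.50). Of the 20 markers of other cell types that passed the filter on low signals, 1 was called in the step, the fibroblast marker LUM. The summed fibroblast markers ranged from 2547 to 2598 at t = 24, from 2118 to 2178 at t = 48 and from 1578 to 1689 in control cells, without overlap.

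The MSX1 signal was lower at the end of the step, but it is not known here whether the MSX1 probe sets measure the construct, the cells' own gene or both. The brighter probe set read 142, 172 and 182 at t = 24 and 96.9, 67.7 and 84.9 at t = 48, a difference of -0.96 (SE 0.15, adjusted p = 0.0021). The 2 groups did not overlap. The t = 48 mean of 83.2 was also under the 110.9 of t = 0 (-0.40, adjusted p = 0.0777), though above the 50.7 of control cells at t = 48. The dimmer probe set gave -0.58 and did not pass (adjusted p = 0.599). Across all genes, 514 (3.99%) were called, 306 of them higher (2.38%) and 208 lower (1.61%) at t = 48. All but 1 of the 514 had arrays that did not overlap between t = 24 and t = 48, a property that 11.0% of all genes had in the upward and 8.95% in the downward direction. The median change was 0.61 among the rises and -0.72 among the falls, against -0.01 over all genes, and 51 rises and 58 falls reached 2-fold. Without the 2 arrays of weak hybridisation control, 337 genes were called, and 303 of the 514 were among them. Without the t = 48 arrays 5 of the rises would have failed the filter on low signals, and without the t = 24 arrays 4 of the falls.

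**Figure D1:**
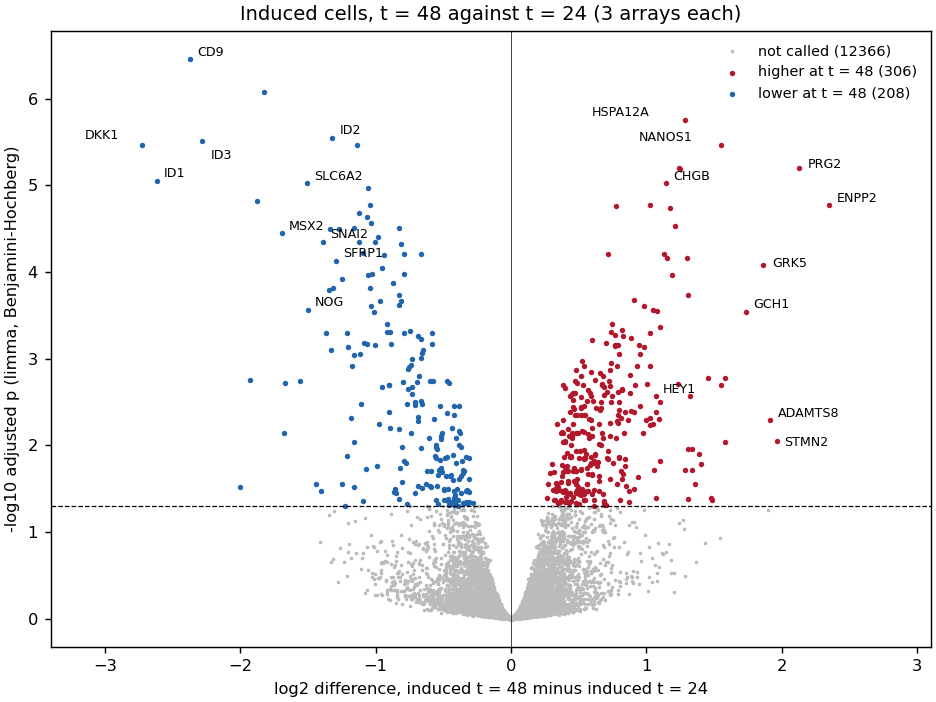
Each point is 1 of 12880 genes, with the log2 difference between induced cells at t = 48 and t = 24 (3 arrays each) on the horizontal axis and -log10 of the adjusted p on the vertical axis; the dashed line marks an adjusted p of 0.05. The 306 rises (red) reach 2.35 at ENPP2 and the 208 falls (blue) reach -2.72 at DKK1.

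Every one of the 9 measured ID, inhibitory SMAD and other BMP target genes fell in the step, where 1.61% of all genes did. Their median was -1.04. The list was drawn up with the falls of ID1 and ID3 known, so its count is a description. ID1 read 1007, 1507 and 1482 at t = 24 and 262, 200.3 and 175 at t = 48 (-2.62, SE 0.19, adjusted p = 8.82e-06). ID3 read 283, 335 and 317 and then 69.1, 50.4 and 61.3 (-2.28, SE 0.14, adjusted p = 3.08e-06). ID2 read 1075, 1082 and 1102 and then 416, 459 and 421 (-1.32, SE 0.08, adjusted p = 2.84e-06). In all 3 genes each t = 48 array lay under each t = 24 array. ID4, the remaining member of the family, read 62.0, 97.5 and 104.6 and then 42.1, 44.7 and 37.1 (-0.98, adjusted p = 0.0057). Other ID4 probe sets above the filter gave -0.35 and -0.43 and did not pass.

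The feedback inhibitors fell by smaller log2 values than ID1 and ID3, and their groups did not overlap either. BAMBI, a decoy receptor that blunts BMP and TGF-beta signalling, read 814, 992 and 964 at t = 24 and 450.1, 453 and 428 at t = 48 (-1.04, SE 0.08, adjusted p = 1.71e-05). SMAD6, which inhibits the BMP branch of SMAD signalling, read 201, 193 and 172 and then 101, 79.1 and 84.6 (-1.06, SE 0.11, adjusted p = 0.000109). A further SMAD6 probe set above the filter gave -0.97 and did not pass (adjusted p = 0.336). SMAD7, the general inhibitory SMAD, changed by -0.61 (adjusted p = 0.00812), and ATOH8, a basic helix-loop-helix factor, by -0.82 (adjusted p = 0.000216). SMAD9, a BMP receptor-activated SMAD, changed least of the 9 at -0.39 (adjusted p = 0.00675). BAMBI, SMAD7, SMAD9 and ATOH8 are named here after their values were seen. Without the arrays of weak hybridisation control, 7 of the 9 fell, and SMAD7 (-0.53, adjusted p = 0.0956) and SMAD9 (-0.35, adjusted p = 0.0621) did not pass; with only the 6 compared arrays in the fit, 6 of the 9 fell.

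The genes of this list had come to t = 24 by different routes. ID2 and BAMBI had risen between t = 0 and t = 24 (0.61 and 1.39), where 5.95% of all genes were called higher, and the other 7 did not pass. At t = 48, BAMBI remained above t = 0 (0.34), and the other 8 lay below it, all 9 past the threshold, beside 9.9% of all genes called higher and 8.2% lower. Against control cells at t = 48, where 5.26% of all genes were called higher and 3.28% lower, ID1 (-1.44), ID4 (-0.68), SMAD6 (-0.42) and SMAD9 (-0.49) were lower and BAMBI was higher (0.66), while ID3 differed by -0.45 (adjusted p = 0.0759) and ID2 by -0.25 (adjusted p = 0.0828). Uninduced culture lowered some of them as well, in a comparison that shares no array with the step. From t = 0 to control cells at t = 48, ID1 went from a mean of 1808 to 581 (-1.64, adjusted p = 0.00226) and ID3 from 257 to 84.4 (-1.56, adjusted p = 0.000431). ID2, SMAD6 and ATOH8 fell there too, so that 5 of the 9 were called lower, where 0.365% of all genes were.

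**Figure D2:**
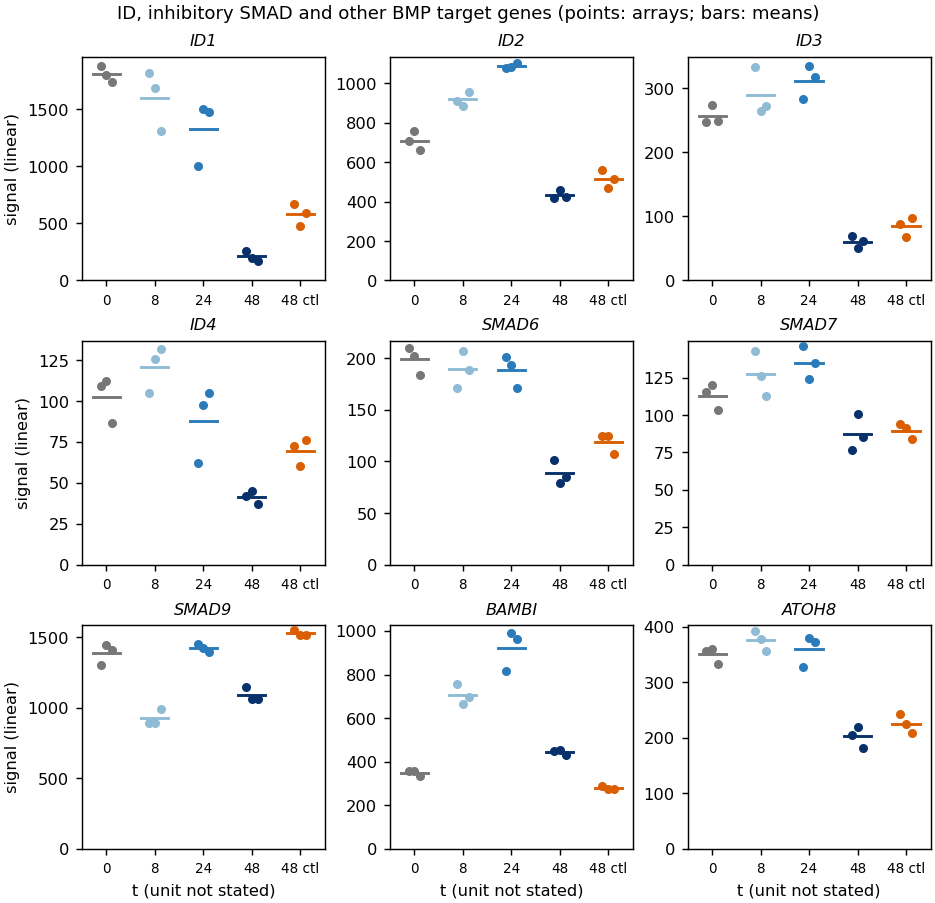
Signal (linear scale) of the 9 ID, inhibitory SMAD and other BMP target genes in t = 0, induced t = 8, 24 and 48, and control t = 48 (48 ctl) cells; points are the 3 arrays of a group and bars their means. In every panel the 3 arrays at induced t = 48 lie below the 3 at induced t = 24, and ID1 drops from a mean of 1332 to 212.

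The promoters of ID1, SMAD6 and BAMBI are shown because they stand for the 3 kinds of gene in this list that moved together: an ID gene, an inhibitory SMAD and the decoy receptor. All 9 genes matched the RefSeq promoter table of GRCh38.p14 by symbol, and each sequence below is the 250 bases before the transcript start, 5' to 3' on the plus strand. Capitals mark matches to GGCGCC or GTCTAGAC, letters that SMAD proteins are known to bind; both are palindromes, so a match reads the same on either strand, and they do not overlap in these windows. The windows are chr20:31605039-31605288 for ID1, chr15:66701986-66702235 for SMAD6 and chr10:28677271-28677520 for BAMBI.
ID1: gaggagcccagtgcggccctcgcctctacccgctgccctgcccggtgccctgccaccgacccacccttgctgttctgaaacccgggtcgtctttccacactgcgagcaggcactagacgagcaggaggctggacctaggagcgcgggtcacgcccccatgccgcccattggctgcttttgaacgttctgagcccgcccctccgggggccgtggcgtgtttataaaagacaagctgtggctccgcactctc
SMAD6: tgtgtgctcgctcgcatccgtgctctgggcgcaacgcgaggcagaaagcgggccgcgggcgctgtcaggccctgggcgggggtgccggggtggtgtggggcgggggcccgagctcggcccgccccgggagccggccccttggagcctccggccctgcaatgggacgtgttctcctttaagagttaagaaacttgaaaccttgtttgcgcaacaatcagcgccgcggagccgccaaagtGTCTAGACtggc
BAMBI: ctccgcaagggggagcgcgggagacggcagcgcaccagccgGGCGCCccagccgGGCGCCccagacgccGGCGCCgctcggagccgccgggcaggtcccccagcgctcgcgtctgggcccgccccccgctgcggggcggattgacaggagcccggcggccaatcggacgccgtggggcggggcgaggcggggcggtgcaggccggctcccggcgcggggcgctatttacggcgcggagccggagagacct
BAMBI held GGCGCC 3 times, and SMAD6 held GTCTAGAC once, starting at position -12 from the transcript start. GGCGCC stood in 16.1% of 27305 promoters and in 1 of the 9 listed here. GTCTAGAC stood in 0.176% of promoters and in 1 of the 9. CAGACA or its reverse complement TGTCTG, another SMAD-bound sequence, stood in 13.6% of promoters and in 0 of the 9. A match describes these letters and not a bound site.

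Other lists around the pathway are given beside all genes, of which 2.38% rose and 1.61% fell. Of 22 measured TGF-beta and BMP ligands, receptors and SMADs, 1 rose (4.55%), INHBE, an inhibin beta subunit (1.0, adjusted p = 0.00515), and 0 fell. Of 5 BMP and activin antagonists, 20.0% fell and 20.0% rose. NOG, the gene of the secreted BMP antagonist noggin, fell and CHRDL1, chordin-like 1, rose (0.73, adjusted p = 0.00205). NOG had a mean of 2.50 at t = 0, read 49.2, 54.9 and 77.6 at t = 24, and 19.3, 19.7 and 14.4 at t = 48 (-1.50, SE 0.17, adjusted p = 0.000274). Of 9 MSX and DLX homeobox genes and cofactors, MSX2, DLX3 and the brighter probe set of MSX1, with the doubts given above, fell (33.3%). MSX2, the closest relative of MSX1, read 95.9, 110.2 and 124 and then 26.7, 30.2 and 34.2 (-1.69, SE 0.15, adjusted p = 3.57e-05). Its t = 48 arrays were close to the means of 27.1 at t = 0 and 24.2 in control cells. A further MSX2 probe set above the filter gave -1.31 and did not pass (adjusted p = 0.0793). DLX3 changed by -0.90 (adjusted p = 0.00201).

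The rise of 90 genes reversed in the step: they were called higher at t = 24 than at t = 0 and lower at t = 48 than at t = 24. They were 11.7% of the 767 genes called higher at t = 24 and 43.3% of the 208 falls of the step, and 0.699% of all genes. Both comparisons use the t = 24 arrays, so an error there moves both in opposite directions, and the count is a description. The median of the 90 was 0.89 for t = 24 against t = 0, -0.79 for the step and 0.10 for t = 48 against t = 0. At t = 48 the mean of 51 genes lay above that at t = 0, and that of 39 at or below it.

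Some reversed genes came back to their starting level or under it. DKK1, a secreted antagonist of Wnt signalling, read 356, 402 and 473 at t = 24 and 70.3, 47.6 and 56.2 at t = 48, under its mean of 116 at t = 0 (t = 48 against t = 0, -0.95, adjusted p = 0.0034). Its mean in control cells at t = 48 was 79.9, from which induced cells differed by -0.44 (adjusted p = 0.16). CD9, a tetraspanin of the cell surface, read 402, 402 and 376 and then 63.1, 75.2 and 78.0 (-2.37, SE 0.11, adjusted p = 3.52e-07), below means of 219 at t = 0 and 170.0 in control cells. A dim CD9 probe set, at means of 19.5 and 13.3, gave -0.47 and did not pass. SNAI2, a zinc-finger repressor of neural crest and mesenchymal cells, read 1075, 1005 and 1054 and then 389, 359.9 and 444 (-1.39, SE 0.13, adjusted p = 4.46e-05). It had a mean of 471 at t = 0 and of 219.7 in control cells, so the t = 48 arrays still exceeded the control by 0.85 (adjusted p = 0.0013). SOX9, a neural crest and cartilage regulator, went the same way, at 455, 463 and 523 and then 251, 224 and 222 (-1.03, adjusted p = 2.75e-05), and stayed 0.85 above control cells.

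Other reversed genes stayed well above the start. LUM, the gene of the small matrix proteoglycan lumican, had a mean of 9.73 at t = 0, read 183, 129 and 168 at t = 24, and 73.4, 51.7 and 78.4 at t = 48 (-1.18, SE 0.21, adjusted p = 0.0049). CDKN1C, the gene of the cell cycle inhibitor p57, had a mean of 157 at t = 0, read 622, 722 and 693 at t = 24, and 470.3, 442 and 426 at t = 48 (-0.60, SE 0.09, adjusted p = 0.00179). Control cells at t = 48 read 156 for CDKN1C and 7.43 for LUM, so both remained above control, by 1.49 and 2.53. COL13A1, a transmembrane collagen (-0.58, adjusted p = 0.000686), and RBM20, an RNA-binding splicing regulator (-0.74, adjusted p = 0.000475), also remained above t = 0, by 1.27 and 0.87. Other COL13A1 probe sets above the filter gave -0.22 and -0.48 in the step and did not pass. SFRP1, a secreted Wnt antagonist, read 1286, 1186 and 1258 and then 548, 476 and 489.6 (-1.29, SE 0.13, adjusted p = 7.45e-05). Unlike the genes above, SFRP1 at t = 48 did not pass against t = 0 (0.35, adjusted p = 0.0789). It remained 1.12 above control cells (adjusted p = 0.00017), in which its level had fallen from a mean of 397 at t = 0 to 229.

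HAS2, which encodes a hyaluronan synthase, had risen by 2.01 at t = 24 and fell by 1.44 in the step (adjusted p = 0.0279). Its call was lost without the arrays of weak hybridisation control (-1.37, adjusted p = 0.177), as was that of MIR100HG (-0.82, adjusted p = 0.0416, against -0.84 and 0.0828). SPRR3, a cornified envelope gene that passed the filter through its t = 24 arrays (-1.67), and CMPK2, a mitochondrial nucleotide kinase (-1.11, adjusted p = 0.00329), complete the 12 reversed genes with the largest rise by t = 24. MMP2, a secreted gelatinase (-0.95, adjusted p = 9.01e-05), GADD45G (-0.89, adjusted p = 0.00624), a growth arrest gene, and NTRK3, the receptor for neurotrophin-3 (-1.16, adjusted p = 0.00912), were reversed rises as well; the calls of GADD45G and NTRK3 were lost without the weak arrays (adjusted p = 0.0643 and 0.105).

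**Figure D3:**
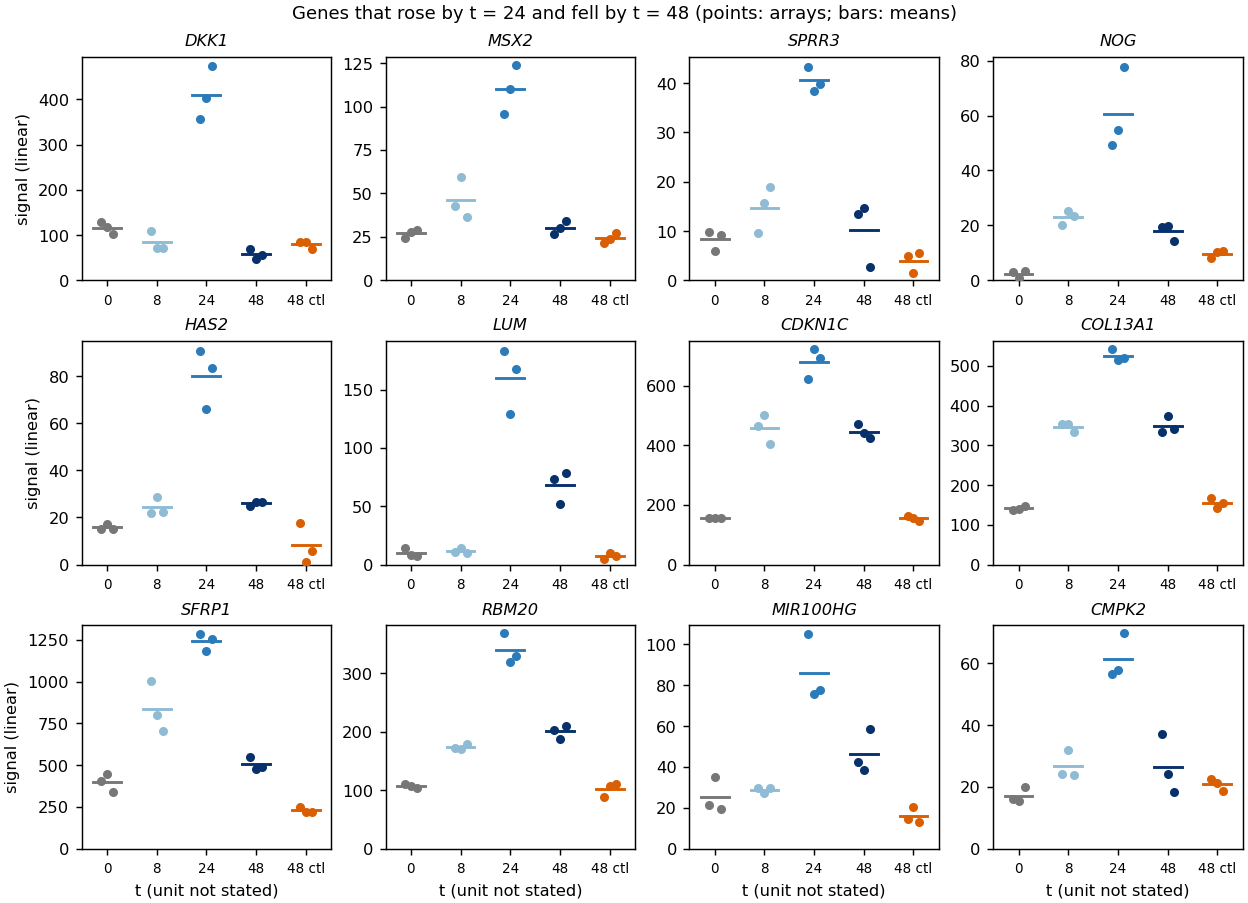
Signal (linear scale) of the 12 genes with the largest rise by t = 24 among the 90 whose rise reversed; points are the 3 arrays of a group and bars their means, with control t = 48 cells as 48 ctl. DKK1 and MSX2 are near or under their t = 0 level at induced t = 48, and LUM, CDKN1C and COL13A1 stay above it.

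The opposite pattern, a fall by t = 24 followed by a rise in the step, was met by 81 genes (0.629%), where 4.87% of all genes were called lower at t = 24 than at t = 0, and the 5 largest of these rises are named. GRK5, a kinase that desensitizes G protein-coupled receptors, had a mean of 33.8 at t = 0, read 16.4, 24.2 and 15.9 at t = 24, and 85.2, 73.8 and 84.9 at t = 48 (1.86, SE 0.19, adjusted p = 8.31e-05). Another GRK5 probe set above the filter gave 0.62 and did not pass. GCH1, which makes the cofactor of tyrosine hydroxylase, had a mean of 48.5 at t = 0, read 22.6, 27.7 and 19.5 at t = 24, and 81.6, 97.2 and 87.9 at t = 48 (1.73, SE 0.20, adjusted p = 0.000286). Control cells at t = 48 had a mean of 86.3 for GCH1, from which the induced cells differed by 0.08 (adjusted p = 0.85). NANOS1, an RNA-binding repressor of translation, read 198, 229.9 and 231 and then 646, 618 and 702 (1.56, SE 0.10, adjusted p = 3.39e-06), above its means of 288 at t = 0 and 344 in control cells. A dimmer NANOS1 probe set above the filter, at means of 13.8 and 25.5, gave 0.76 and did not pass. UNC5A, a netrin receptor (1.36, adjusted p = 0.0281), and LINC01828 (1.33, adjusted p = 0.0027) were the remaining rises.

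The largest rises of the step were in genes of diverse function. ENPP2, which encodes autotaxin, the secreted enzyme that makes lysophosphatidic acid, read 586, 730.2 and 682 at t = 24 and 3503, 3353 and 3374 at t = 48 (2.35, SE 0.19, adjusted p = 1.71e-05). Its other probe set above the filter gave 2.63. In control cells ENPP2 also rose, from a mean of 136 at t = 0 to 432 at t = 48 (1.59, adjusted p = 0.0023). PRG2, the gene of a proteoglycan known from eosinophil granules, read 209.5, 276 and 281 and then 1139.7, 1147 and 1083 (2.13, SE 0.15, adjusted p = 6.28e-06), and differed by -0.25 in control cells (adjusted p = 0.59). HEY1, a repressor downstream of Notch, read 334, 435 and 473 and then 998, 814 and 801 (1.07, SE 0.17, adjusted p = 0.00273). Another HEY1 probe set above the filter gave 1.15 and did not pass (adjusted p = 0.307). HES1, another Notch effector, which had risen by 2.11 at t = 24, differed in the step by 0.11 (95% confidence interval -0.59 to 0.81, adjusted p = 0.929). Of the 30 measured Notch pathway genes, 3 rose (10.0%, against 2.38% of all genes) and 0 fell. Beside HEY1 these were MFNG, which modifies Notch receptors (1.18, adjusted p = 1.81e-05), and MAML3, a coactivator (0.44, adjusted p = 0.00269). MFNG was also 1.09 higher in control cells at t = 48 than at t = 0. Induced cells at t = 48 differed from control cells by -0.57 for MFNG and by 4.25 for HEY1. Other probe sets above the filter gave 0.79 for MFNG and 0.58 and 0.38 for MAML3, and none of these passed.

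SPOCK1, a secreted proteoglycan gene, read 246, 251 and 259.7 and then 614, 551 and 658 (1.25, SE 0.09, adjusted p = 6.51e-06). Its mean was 86.4 at t = 0 and 87.3 at t = 8, and 129.5 in control cells. Of the 15 largest rises, 7 had a t = 24 mean under 22, the highest array median at that time, namely STMN2, ADAMTS8, GRK5, KCNMA1, ROBO2, INSM2 and RARB, and the size of such changes depends on the offset. ADAMTS8, a matrix protease, read 17.8, 12 and 2.70 and then 57.5, 45.1 and 47.8 (1.92). GPR26, an orphan receptor, read 30.1, 24.5 and 28.7 and then 107, 119 and 63.5 (1.58, adjusted p = 0.00912). ADAMTS8, KCNMA1, ROBO2 and INSM2 passed the filter on low signals through the t = 48 arrays, so their differences were favoured by the filter and are given without a p. SLC44A5, of the choline transporter-like family (1.55, adjusted p = 0.00201), and UG0898H09 (1.45, adjusted p = 0.00166) rose as well. The calls of RARB, a retinoic acid receptor (1.39, adjusted p = 0.0126), and PLEKHA6, a cell junction protein gene (1.40, adjusted p = 0.0163), were lost without the arrays of weak hybridisation control (adjusted p = 0.129 and 0.0984). A further RARB probe set above the filter gave 1.14 and did not pass (adjusted p = 0.486).

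**Figure D4:**
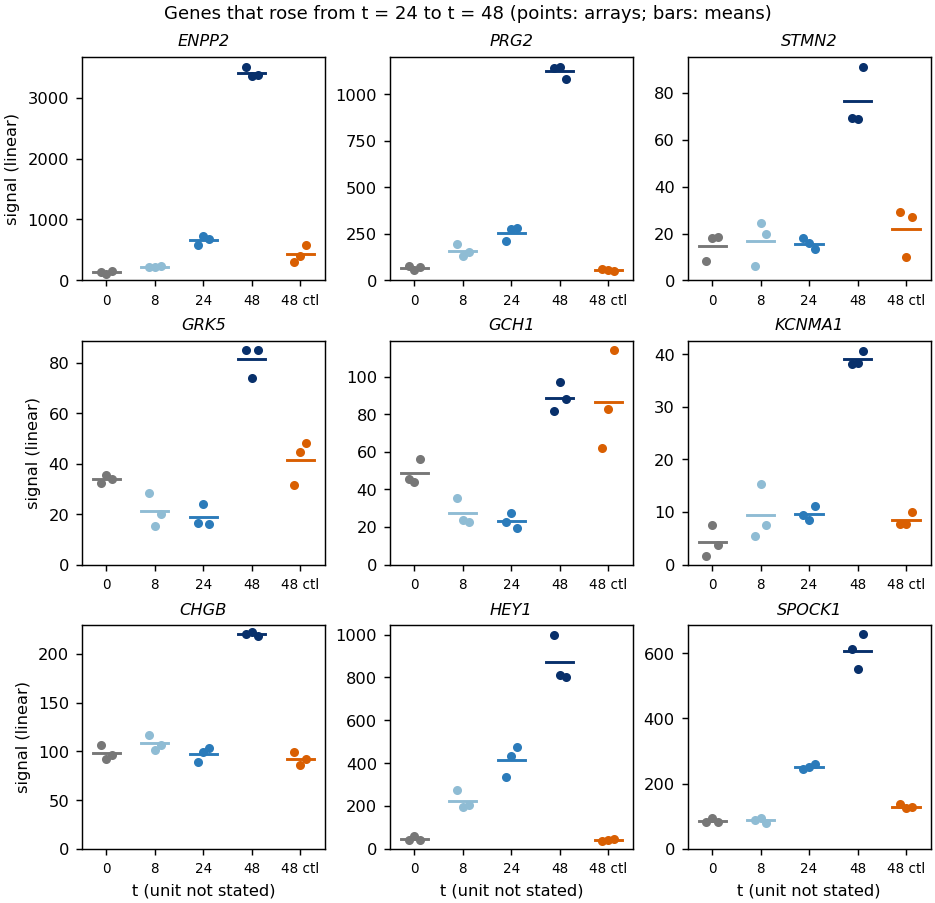
Signal (linear scale) of 9 genes that rose from induced t = 24 to t = 48; points are the 3 arrays of a group and bars their means, with control t = 48 cells as 48 ctl. In every panel the 3 arrays at induced t = 48 lie above the 3 at induced t = 24, and in GCH1 the control cells reach the same level.

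Among 34 measured genes of the neuronal cytoskeleton and differentiation, 11 rose (32.4%) and 1 fell (2.94%), with a median of 0.20. Of all genes, 2.38% rose and 1.61% fell. STMN2, a microtubule regulator of growth cones, read 17.9, 15.8 and 13.4 at t = 24 and 69.2, 68.9 and 91.2 at t = 48 (1.96, SE 0.37, adjusted p = 0.00884), and a further probe set gave 1.94. CNTN1, an axonal adhesion molecule, read 131, 174 and 189 and then 379, 315 and 276 (0.96, adjusted p = 0.00351), which returned it to near its t = 0 mean of 306. MAP2, a dendritic microtubule-binding protein gene, rose by 0.59 (adjusted p = 0.00273), and another of its probe sets gave 0.12 and did not pass. GPM6B, a neuronal and glial membrane glycoprotein gene, fell (-0.82, adjusted p = 3.1e-05). The 8 other rises lay between 0.39 and 0.57. This count moved with the processing: 7 rose without the arrays of weak hybridisation control, where STMN2 did not pass (adjusted p = 0.0846), and 3 rose either with arrays centred on their median or with only the compared arrays in the fit. Against control cells at t = 48, 8 of the 34 were called higher and 2 lower, where 5.26% and 3.28% of all genes were. Of the 11 rises, STMN2 (1.67), DCX (0.77), MAP2 (0.34) and CRMP1 (0.34) were called higher there. The remaining rises differed from control cells by -0.10 to 0.28 and did not pass.

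Of 29 synaptic vesicle and secretory granule genes, 4 rose (13.8%) and 1 fell (3.45%), where 2.38% of all genes rose and 1.61% fell. CHGB, the gene of the granule protein chromogranin B, read 89.2, 98.9 and 103 and then 220, 223 and 219 (1.14, SE 0.09, adjusted p = 9.51e-06). Its means at t = 0, t = 8, t = 24 and in control cells lay between 92.5 and 108, under every array at t = 48. SCG3, a secretogranin (0.60, adjusted p = 0.0215), NPY, a neuropeptide (0.51, adjusted p = 0.0115), and PAM also rose, and SYN2, a synaptic vesicle phosphoprotein gene, fell (-1.12, adjusted p = 4.46e-05); 2 rose without the arrays of weak hybridisation control, with arrays centred on their median or with only the compared arrays. Of 28 voltage-gated and related ion channel genes, 6 rose (21.4%) and 1 fell (3.57%), and 2 rose with only the compared arrays in the fit. KCNMA1, the pore subunit of a calcium-activated potassium channel, read 9.40, 8.40 and 11.1 and then 38.1, 38.3 and 40.6 (1.58). Its rise, counted among the 6, was favoured by the filter on low signals, as given above. KCNK3, a background potassium channel (1.30, adjusted p = 6.83e-05), rose, and the sodium channel beta subunit gene SCN3B fell (-1.27, adjusted p = 3.22e-05). Of 28 transmitter-gated receptor genes, 7.14% rose and 7.14% fell. CHRNA1, the muscle-type nicotinic receptor alpha subunit (1.19, adjusted p = 0.000108), and GLRB, a glycine receptor subunit (0.46, adjusted p = 0.0198), rose. GRIK3 (-0.78, adjusted p = 0.0159) and HTR3A (-0.58, adjusted p = 0.000507) fell. With arrays centred on their median 1 rose, and with only the compared arrays 1 fell.

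Noradrenergic genes did not move as one. Of 11 catecholamine genes, GCH1 rose (9.09%) and SLC6A2 and ADRA2A fell (18.2%). Of all genes, 2.38% rose and 1.61% fell. SLC6A2, the noradrenaline transporter, read 271, 271 and 275 and then 88.0, 95.9 and 94.4 (-1.50, SE 0.11, adjusted p = 9.51e-06); 3 of its other probe sets fell too, by -1.34 to -2.13. A further pair above the filter did not pass, at -0.90 (adjusted p = 0.23, means of 68.8 and 34.2) and at 0.16 on low signals. ADRA2A, an inhibitory adrenergic receptor, changed by -1.20 (adjusted p = 0.000739). Of 24 adrenergic neuroblastoma regulators, 0 rose and 3 fell (12.5%), namely the T-box gene TBX2 (-1.25, adjusted p = 0.000122), EYA1 (-0.51, adjusted p = 0.00847) and HAND1 (-0.36, adjusted p = 0.0466). The count was 1 with arrays centred on their median or without the weak arrays. TBX2 read 902, 769 and 729.7 and then 334, 298 and 369. MYCN, the oncogene amplified in this line, differed by 0.02 (95% confidence interval -0.15 to 0.20, adjusted p = 0.942). Further MYCN probe sets above the filter gave -0.0016, -0.07 and 0.11 and did not pass. Of 14 proneural factors and partners, 3 rose (21.4%). They were INSM2 (1.48), a zinc-finger factor of neuroendocrine cells, its relative INSM1 (0.75, adjusted p = 0.0159) and EBF3 (0.54, adjusted p = 0.0139). INSM2 is in this count although it passed the filter on low signals through the t = 48 arrays, which favoured its rise. Other probe sets above the filter gave 0.18 for INSM1 and 0.47 and -0.0002 for EBF3, and none of these passed. The count of rises was 0 without the arrays of weak hybridisation control and 1 with arrays centred on their median.

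Among 14 mesenchymal genes and transcription factors of the epithelial-mesenchymal transition, 4 fell (28.6%) and 0 rose, where 1.61% of all genes fell. SNAI2 was joined by SNAI1 (-1.33, SE 0.18, adjusted p = 0.000794), the Hippo pathway coactivator YAP1 (-0.80, adjusted p = 0.0263) and the intermediate filament gene VIM (-0.54, adjusted p = 0.0219). SNAI1 read 102, 109 and 139 and then 40, 45 and 44. Without the arrays of weak hybridisation control, or with only the compared arrays in the fit, 2 of the 14 fell. The summed fibroblast markers were lower in the same arrays, as given above; most of that sum came from PDGFRA, with means of 1198 and 1194 (0.0001, adjusted p = 0.9995), and COL1A1, at 919 and 623 (-0.55, adjusted p = 0.0572). LUM was the only 1 of the 9 fibroblast markers tested that was called, DCN (22.2 and 18.6) and ACTA2 (44.3 and 42.4) were dimmer, and the part of other cell types in these changes was not tested. Of 21 YAP, SRF and TGF-beta responsive genes, 0 rose and AMOTL2 (-0.55, adjusted p = 0.0105), AJUBA (-0.39, adjusted p = 0.00988) and TEAD1 (-0.37, adjusted p = 0.0223) fell (14.3%). The count of falls was 1 with arrays centred on their median and 0 with only the compared arrays. Further probe sets above the filter gave -0.28 and -0.39 for TEAD1 and -0.43 for AJUBA, and none of these passed. Of 35 collagen genes, COL13A1 and COL4A1 (-0.43, adjusted p = 0.0253) fell (5.71%) and 0 rose. The count of falls was 1 with only the compared arrays or without the weak arrays.

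Genes of Wnt signalling were called in short lists, where 2.38% of all genes rose and 1.61% fell. The lists of antagonists, of ligands and receptors and of beta-catenin targets held few calls each. Their counts are a description, and no difference in frequency from all genes is drawn from them. DKK1 and SFRP1 fell among 5 measured Wnt antagonists, and FZD7, a Wnt receptor (-0.66, adjusted p = 6.2e-05), fell among 20 ligands and receptors. Of 8 beta-catenin target genes, AXIN2 (0.52, adjusted p = 0.0016) and ZNRF3 (0.50, adjusted p = 0.00722), both feedback inhibitors of the pathway, rose, although another AXIN2 probe set gave -0.33 and did not pass, and 0 of the 8 rose with only the compared arrays in the fit and 1 without the weak arrays. Of 50 axon guidance genes, 5 rose (10.0%), ROBO1, ROBO2, UNC5A, SEMA6D and EFNB2, and 3 fell (6.0%), SLIT3, UNC5B and SEMA5A. With arrays centred on their median 1 rose, and with only the compared arrays in the fit 1 rose and 1 fell. The count of 5 includes ROBO2, which passed the filter on low signals through the t = 48 arrays. ROBO2, a Slit receptor, rose from signals of 13.7, 1.10 and 8.90 to 32.5, 26.7 and 25.2 (1.49), and SLIT3, a Slit ligand, fell from 158, 173 and 188 to 78.6, 59.8 and 59.0 (-1.33, adjusted p = 3.22e-05). SLIT3 had also fallen by t = 24 (-0.80) and ended 1.69 below control cells. Further SLIT3 probe sets above the filter gave -0.48 and -0.76 in the step and did not pass (adjusted p = 0.599 and 0.232). LMO4, a LIM-domain cofactor whose mean had dropped from 1123 at t = 0 to 289 at t = 24, fell further by 0.54 (adjusted p = 0.0478), but the call was lost with arrays centred on their median (adjusted p = 0.185) and with only the compared arrays in the fit (adjusted p = 0.256), among others. The 3 other LMO4 probe sets above the filter gave -0.08, -0.30 and -0.11, with adjusted p from 0.897 to 0.951. The chemokine receptor gene CXCR4, with means of 151 at t = 0 and 43.9 at t = 8, differed by 0.06 (95% confidence interval -0.22 to 0.33, adjusted p = 0.905). Further CXCR4 probe sets above the filter had the opposite sign, at -0.23 and -0.26, and did not pass (adjusted p = 0.847 and 0.684).

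Proliferation and housekeeping lists held no call, where 3.99% of all genes were called, 2.38% higher and 1.61% lower. Of 52 G2 and mitosis genes, limma called 0 at an adjusted p of 0.05 and 0 at an unadjusted p of 0.05, with values from -0.22 to 0.23. Of 50 G1-S and DNA replication genes 0 were called, and 4 had an unadjusted p under 0.05. Over all 12880 genes, 1889 had an unadjusted limma p under 0.05. The same count of 0 was found for 42 cytosolic ribosomal protein genes (0 at an unadjusted p under 0.05), 36 ribosome biogenesis genes (2), 47 oxidative phosphorylation genes (2), 28 lysosome and autophagy genes (3), 19 integrins and laminins (4) and 15 HOX genes (0). At a share of 3.99%, lists of these lengths can hold 0 calls without differing from all genes, so these counts are a description. Of 17 cell cycle inhibitors and growth arrest genes, CDKN1C and GADD45G fell (11.8%), both of them reversed rises. The count was 1 with only the compared arrays or without the weak arrays. Of 39 hypoxia and glycolysis genes, 4 rose (10.3%) and 0 fell. The rises were STC1 (0.89, adjusted p = 0.000573), ADM (0.69, adjusted p = 0.0491), ENO2 (0.63, adjusted p = 0.00368) and PFKP (0.49, adjusted p = 0.0045), and 2 rose without the arrays of weak hybridisation control or with only the compared arrays. Of 20 cholesterol synthesis genes, MSMO1 (-0.43), SQLE (-0.39) and SC5D (-0.32) fell, each with an adjusted p between 0.0449 and 0.0497, and 0 fell with arrays centred on their median, with only the compared arrays or without the arrays of weak hybridisation control. Further SQLE probe sets above the filter gave 0.02, -0.36 and -0.26 and did not pass.

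The genes of the step were set beside uninduced culture, control cells at t = 48 against t = 0, which uses none of the same arrays. Of the 306 rises, 258 (84.3%) were higher in control cells at t = 48 than at t = 0, with a median of 0.25, where 49.0% of all genes were. Of the 208 falls, 171 (82.2%) were lower, with a median of -0.22, where 51.0% of all genes were. Fewer passed the threshold in culture alone: 32 of the rises were called higher and 34 of the falls called lower, which is 10.5% and 16.3%, against 0.481% and 0.365% of all genes. Against these, 0 of the rises were called lower and 2 of the falls higher, NOG (0.97) and MYLK, the gene of myosin light chain kinase (0.52), which is named for this value.

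CHRNA1 rose by 1.19 both in the step and in uninduced culture, and RGS4, a regulator of G protein signalling, by 0.89 and 1.53. HSPA12A, a distant relative of heat shock protein 70, read 110.3, 105 and 108 at t = 24 and 279.8, 276 and 256 at t = 48 (1.29, SE 0.07, adjusted p = 1.77e-06), and 307 in control cells at t = 48. C11orf96, whose function is not well known, read 695, 692 and 648 and then 208, 176 and 181 (-1.83, SE 0.10, adjusted p = 8.45e-07), and fell in culture by 0.74 (adjusted p = 0.0037). A dim C11orf96 probe set, at means of 13.2 and 12.3, gave -0.03 in the step. SAMD11, at 190.1, 227 and 219 and then 54.2, 54.4 and 52.8 (-1.88, SE 0.15, adjusted p = 1.52e-05), fell in culture by 1.16 (adjusted p = 0.0037). HEY1, PRG2 and CHGB had values of -0.15, -0.25 and -0.08 in culture, none of which passed. No control array was taken at t = 24, so how much of the culture change fell within the step was not measured.

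**Figure D5:**
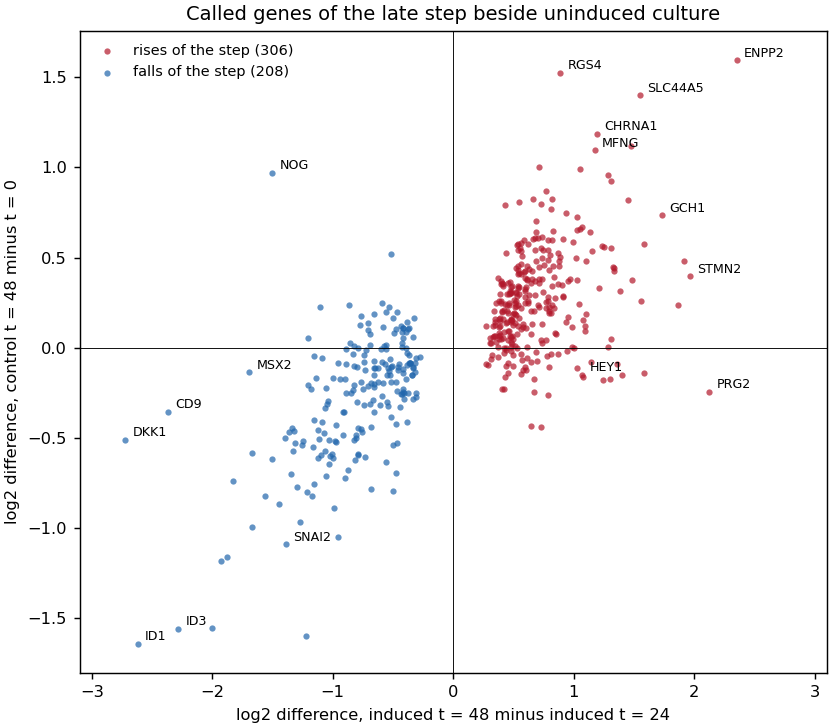
Each point is 1 of the 514 genes called in the late step, with its log2 difference between induced t = 48 and t = 24 on the horizontal axis and that between control t = 48 and t = 0 on the vertical axis. Of the 306 rises (red) 258 lie above 0 on the vertical axis and of the 208 falls (blue) 171 lie below it, with ENPP2, ID1 and ID3 far from 0 and PRG2 and HEY1 near it.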

How the data were processed

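Total RNA of 15 IMR32 samples was labelled and hybridised to Affymetrix arrays per the labels' protocols. The deposited table holds linear intensities made by the authors with MAS5 and GCOS per the submitters' processing notes; versions and genome build are not given in the sources used here. Each array's trimmed mean was 100.0, so differences in the spread of low signals remain. Of 54675 probe sets, 41091 had exactly 1 symbol in the platform annotation, 1801 several and 11721 were not listed; 41037 were matched by Entrez identifier to RefSeq GRCh38.p14. A few genes are not reported here.

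Values were taken as log2(intensity + 5.16), with the mean lower quartile of the arrays as offset, which understates changes of dim genes. Probe sets reaching their array's median on at least 3 arrays were kept, and the brightest per gene was tested (12880 genes). The test was limma 3.58.1 in R 4.3.3 (two-sided, 5 group means, all 15 arrays sharing 1 spread), adjusted by Benjamini-Hochberg and tested on simulated data. The number of arrays limits precision. No label states that replicates were separate cultures, so the p-values rest on a spread between samples that may be technical.

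Named genes were the 15 largest rises and falls without overlap, the 12 reversed rises with the largest first rise, the 5 largest rises after a called fall, up to 4 called members of each list, and a few fixed genes. Members and the 56 gene lists were chosen with earlier results of these data known, and lists are described by counts without a test. No label states that replicate numbers mark pairs of arrays, so no block was used in the main fit. Alternatives covered offset, scaling, filter, probe set, variance model, arrays fitted, replicate block, threshold and left-out arrays. Figures were drawn with matplotlib 3.10.9.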

Additional observations from a re-analysis of the deposited data

How the results depend on the processing

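Each of the 514 calls kept its direction in every alternative fitted on genes, over the 510 genes kept by the filter that asks for the median signal on all 3 arrays of a group. Of the 306 rises 305, and all 208 falls, had arrays that did not overlap between t = 24 and t = 48. For these, left-out arrays or another offset or variance model could not turn the direction, so its constancy there is no check. Many calls lost significance, so the counts are uncertain. Calls (higher and lower) numbered 294 (158 and 136) with arrays centred on their median, 261 (146 and 115) with only the compared arrays in the fit, 282 (162 and 120) at an adjusted p of 0.01, and 337 (191 and 146) without the 2 arrays of weak hybridisation control; the causes were not tested beyond the fewer arrays or stricter threshold. Reversed rises numbered 53 at an adjusted p of 0.01, and 2-fold changes 60 at 4 times the offset. With each array left out in turn, calls ranged from 355 to 461, higher calls from 186 (without t = 48 replicate 2; 203 without t = 24 replicate 2) to 269, lower calls from 141 to 192, 2-fold changes from 94 to 105 and reversed rises from 62 to 87. With the replicate number as a replicate block, 440 genes were called (266 higher, 174 lower), of which 425 were among the 514, with 105 changes of 2-fold, 74 reversed rises, 3 rises among axon guidance genes and 0 falls among cholesterol synthesis genes and LIM-domain cofactors; deviations of same-numbered arrays correlated at -0.278, 0.089 and -0.236, so the numbers were not taken as a pairing. Of 118 called named genes, 59 were called in every alternative at 0.05. Values of 3 genes that were not called changed sign: CXCR4 (-0.0958 without t = 48 replicate 2, up to 0.1671 without replicate 1), HES1 (-0.0026 without t = 24 replicate 2, up to 0.2117 without replicate 1) and MYCN (-0.0417 after quantile normalization, -0.0352 without the weak arrays, -0.006 and -0.0156 without t = 48 replicate 1 or 3, up to 0.0927 without replicate 2). List counts without the weak arrays were chosen after seeing the data: 7 BMP targets fell, and 7 neuronal genes and 4 channels rose, and 2 mesenchymal genes fell. Dim genes are limited by signal over background, since the offset sets their size.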
